A study of Mus musculus with 4 samples.

Results

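The MCM helicase genes and Cdc45 were measured in skin cells sorted from newborn mice after induction of the microRNA miR-203. The members were taken by symbol, as all probe sets that the platform annotation gives to exactly 1 gene among Mcm2 to Mcm10 and Cdc45. This gave 10 genes with 29 probe sets, out of 18193 genes with 34945 such probe sets in all. Of the 29 probe sets, 22 had a mean log2 value over the 4 arrays of at least 4.17, the 40th percentile of all probe sets, and these are called kept. All 10 genes had at least 1 kept probe set, and the kept probe set of highest mean level represents its gene.

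The induced pups carried K14-rtTA/TRE-miR-203/K14-H2BGFP, that is the activator rtTA, which needs doxycycline, under the keratin 14 promoter, a miR-203 transgene that responds to rtTA, and a nuclear green fluorescent protein under the same keratin promoter. Their littermates, labelled WT, carried TRE-miR-203/K14-H2BGFP without the activator, so the miR-203 transgene and the fluorescent protein were shared by both groups. All were FVB pups at postnatal day 4, taken 24 h after a doxycycline injection. Each group had 2 arrays of biological replicates (by their labels), and the effect of the activator itself cannot be told apart from that of miR-203. The transgene is driven in keratin 14 cells, mainly the basal layer and outer root sheath, and how the sort was gated is not given. The question is how transcript levels differ a day after induction.

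The Mcm2 to Mcm7 proteins assemble into a ring that is loaded on DNA at replication origins in G1 and unwinds the duplex in S phase. The ring becomes an active helicase only when Cdc45 and the GINS complex bind to it, and Mcm10 is needed for the assembled helicase to start unwinding. Mcm8 and Mcm9 are relatives that form a complex of their own and act in recombination repair. In epidermis these genes mark the dividing basal cells and the hair matrix, and their transcription is a textbook target of the E2F factors. miR-203 itself is abundant in the suprabasal layers and is known for limiting the proliferation of basal cells.

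The mature strand of the induced microRNA, from RefSeq (GRCm38.p6, chr12:112130927-112130948, plus strand), is shown because it is what the transgene adds. Its seed, bases 2 to 8, is in capitals. Whether the members' transcripts hold matches to this seed was not analysed here.
mmu-miR-203-3p: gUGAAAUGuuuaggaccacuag

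Promoters are shown because transcription of these genes is a textbook target of the E2F factors. RefSeq promoter windows of 300 bases (250 before to 50 after the start site, GRCm38.p6) were matched by symbol for 9 of the 10 genes, all but Mcm4, and Mcm7 had 2 of them. They were searched on both strands for the E2F octamers TTTCCCGC, TTTCGCGC, TTTGCCGC and TTTGGCGC. A match was found for 5 of the 9 genes, namely 4 of 5 ring genes (Mcm3, Mcm5, Mcm6 and Mcm7) and Mcm8, against 2.26% of all 32851 windows. The background share was not matched on base composition. The pentamer CCAAT was in windows of all 9 genes and in 37.4% of all windows. The stretches of 200 bases that end at the start site are given for Mcm6 (chr1:128359706-128359905, minus strand), Mcm5 (chr8:75109309-75109508, plus strand), the upstream window of Mcm7 (chr5:138171884-138172083, minus strand) and, as a member without a match, Mcm9 (chr10:53629958-53630157, minus strand). Capitals mark the octamers.
Mcm6: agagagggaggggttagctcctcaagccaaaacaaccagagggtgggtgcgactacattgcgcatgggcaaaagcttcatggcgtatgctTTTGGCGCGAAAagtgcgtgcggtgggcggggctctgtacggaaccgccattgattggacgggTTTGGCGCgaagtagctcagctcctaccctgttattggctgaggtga
Mcm5: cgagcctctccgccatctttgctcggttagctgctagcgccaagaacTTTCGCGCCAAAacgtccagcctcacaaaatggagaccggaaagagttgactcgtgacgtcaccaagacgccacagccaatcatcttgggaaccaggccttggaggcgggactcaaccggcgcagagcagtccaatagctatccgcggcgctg
Mcm7: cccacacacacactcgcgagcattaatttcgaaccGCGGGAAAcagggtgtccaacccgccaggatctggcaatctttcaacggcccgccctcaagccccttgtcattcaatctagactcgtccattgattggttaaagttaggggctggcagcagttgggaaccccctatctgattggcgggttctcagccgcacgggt
Mcm9: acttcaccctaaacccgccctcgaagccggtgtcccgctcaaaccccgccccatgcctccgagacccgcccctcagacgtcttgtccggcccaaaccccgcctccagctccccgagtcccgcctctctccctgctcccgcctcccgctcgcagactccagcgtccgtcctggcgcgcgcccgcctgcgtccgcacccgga

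In Mcm6 the octamers began 110, 106 and 47 bases before the start site, and the upstream pair overlapped on opposite strands. Mcm5 had the same kind of overlapping pair, 153 and 149 bases before the start site. In its upstream window Mcm7 had 1 match 165 bases before the start site and 1 at 16 bases after it, and its other window had no match. The matches of Mcm3 (19 and 38 bases) and Mcm8 (39 bases) lay after the start site. Mcm2, Mcm9, Mcm10 and Cdc45 had none in these windows. A match is a description of the letters, and none was tested for function here. Whether matches go with the members' differences was not tested either.

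The 4 arrays were alike in their overall values, with medians of 4.74 to 4.79 on the log2 scale and Pearson's r across kept probe sets of 0.995 between the controls, 0.994 between the induced arrays and 0.991 to 0.993 between groups (across probe sets, which are not independent replicates). Epidermal identity was plain: the basal keratins Krt5 and Krt14 and the suprabasal keratins Krt1 and Krt10 had log2 values of 13.6 to 14.3 on every array. Induced replicate 1 stood apart in sex-linked transcripts, with Eif2s3y, a Y-linked gene, at 9.38 against 2.52 to 2.82 on the other 3 arrays and Xist, expressed from the inactive X, at 5.86 against 10.6 to 11.2. In these transcripts induced replicate 1 thus had the pattern of male RNA, and the other 3 arrays that of female RNA. Induced replicate 1 was also the lowest array for most members, and each member's difference without it is given in the text. The part of sex in those differences was not tested.

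The induced mean was below the control mean for all 10 members, and for each of them both induced arrays lay below both controls at the representative probe set. Of all 13489 genes, 50.4% had a lower mean and 19.3% were lower without overlap. No member passed limma's test over the whole table (0 of 22 kept probe sets at an adjusted p under 0.05, where 0% of all 27022 passed), and 0 passed with limma's trended and robust variance prior, where 0.215% of probe sets passed as lower. At an unadjusted p under 0.05, 12 of the 22 were lower, against 4.69% of all kept probe sets. Differences below are the induced mean minus the control mean, in log2 units, ± 1 SE of the limma fit (n = 2 and 2), and each adjusted p is limma's with Benjamini-Hochberg adjustment over the 27022 probe sets. An exact two-sided permutation of 2 against 2 arrays cannot go below p = 0.33.

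**Figure D1:**
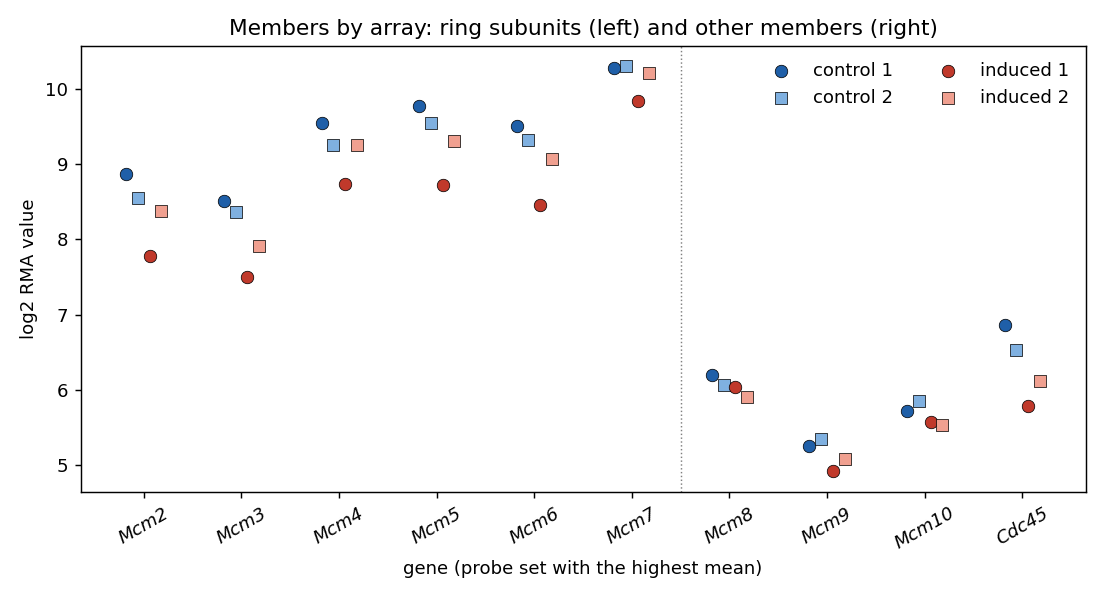
Log2 RMA value of the representative probe set of each member (vertical axis) on each of the 4 arrays (points, blue for controls, red for induced), with Mcm2 to Mcm7 left of the dotted line and the other members right of it. Both induced points lie below both control points in all 10 genes, with Mcm4 almost touching (9.25 in induced replicate 2 and 9.26 in control replicate 2), and heights of different genes are not comparable because each probe set has its own brightness.

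At the representative probe sets, the largest difference in the ring was that of Mcm3, whereas averaged over all kept probe sets of each gene it was that of Mcm6 (-0.77, with Mcm3 at -0.54). The Mcm3 representative probe set had log2 values of 8.51 and 8.36 (controls) against 7.50 and 7.91 (induced). Both induced values were well below the lower control. The difference was -0.73 ± 0.16, or 1.66-fold lower (95% interval -1.13 to -0.34, adjusted p = 0.263), and without induced replicate 1 it was -0.53.

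Mcm6, which sits between Mcm2 and Mcm4 in the ring, had values of 9.52 and 9.33 (controls) against 8.45 and 9.07 (induced). Induced replicate 1 was far below the rest, while induced replicate 2 was at -0.35 from the control mean. The difference was -0.66 ± 0.21, or 1.58-fold lower (adjusted p = 0.398). The other kept probe set of Mcm6 had the largest difference of the 22 kept member probe sets, -0.88 ± 0.19 (adjusted p = 0.261), with values of 8.88, 8.54, 7.60 and 8.05 in the same order of arrays.

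Mcm5 and Mcm2 followed closely. Mcm5, which with Mcm2 forms the gate through which DNA enters the ring, had values of 9.78 and 9.55 (controls) against 8.72 and 9.31 (induced). The difference was -0.65 ± 0.21, or 1.57-fold lower (adjusted p = 0.400). Mcm2, the subunit that also carries histones at the fork, had values of 8.88 and 8.55 (controls) against 7.77 and 8.38 (induced). In Mcm5 and Mcm2 alike, induced replicate 2 was closer to the lower control than to induced replicate 1. The Mcm2 difference was -0.63 ± 0.22, or 1.55-fold lower (adjusted p = 0.437). Without induced replicate 1 the differences were -0.35 for Mcm5, -0.35 for Mcm6 and -0.33 for Mcm2.

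Mcm4 and Mcm7, which with Mcm6 form the subcomplex that has helicase activity by itself, had the smallest differences in the ring. Mcm4 had values of 9.56 and 9.26 (controls) against 8.74 and 9.25 (induced). Induced replicate 2 thus almost equalled control replicate 2, and when the arrays were centred on their medians Mcm4 no longer separated the groups. Its difference was -0.41 ± 0.20, or 1.33-fold lower (adjusted p = 0.562), and -0.16 without induced replicate 1. Mcm7 had values of 10.28 and 10.31 (controls) against 9.84 and 10.22 (induced). Its controls were nearly equal, and only induced replicate 1 was clearly apart. The difference was -0.27 ± 0.15, or 1.20-fold lower (adjusted p = 0.616), and -0.08 without induced replicate 1.

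The median difference over the 6 ring genes was -0.64, against -0.00080 over all 13489 genes. That median rested in large part on induced replicate 1, being -0.34 without it and -0.94 without induced replicate 2. The order of the subunits was not resolved by the arrays: between pairs of ring genes, the log2 ratio separated the groups in 8 of 15 pairs, where 42% of all pairs of genes do so. Of those 8 pairs, 4 involved Mcm7. The ratio of Mcm6 to Mcm7 was lower by 0.40 on the log2 scale in the induced arrays (a change of -0.40), while Mcm5 and Mcm6 kept the steadiest ratio of any ring pair, which spanned 0.05 over the 4 arrays.

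The helicase activator Cdc45 differed as much as the ring, and the remaining members by less. Cdc45 had values of 6.86 and 6.53 (controls) against 5.78 and 6.12 (induced). Both induced arrays were further below the lower control than the controls were from each other. The difference was -0.75 ± 0.17, or 1.68-fold lower (adjusted p = 0.268), and -0.58 without induced replicate 1. The other kept probe set of Cdc45 went the opposite way without overlap, with values of 4.87 and 4.82 (controls) against 5.05 and 4.95 (induced) (0.16 ± 0.10, adjusted p = 0.675), so the direction of Cdc45 depends on the probe set. With the mean of both probe sets the difference was -0.30.

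Mcm9, the repair helicase partner of Mcm8, had values of 5.24 and 5.34 (controls) against 4.91 and 5.07 (induced). The groups were apart by a small margin, and the difference was -0.30 ± 0.11, or 1.23-fold lower (adjusted p = 0.444). Mcm10 had values of 5.71 and 5.84 (controls) against 5.57 and 5.53 (induced). Here induced replicate 2 was the lowest array, and the difference was -0.23 ± 0.10, or 1.17-fold lower (adjusted p = 0.536). Mcm8, with a single probe set, had values of 6.20 and 6.06 (controls) against 6.03 and 5.90 (induced). Its groups nearly met, at 6.06 and 6.03, and the difference was -0.16 ± 0.11, or 1.12-fold lower (adjusted p = 0.694, 95% interval -0.43 to 0.11). Without induced replicate 1 the differences were -0.22 for Mcm9, -0.25 for Mcm10 and -0.23 for Mcm8.

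The median over Mcm8, Mcm9, Mcm10 and Cdc45 was -0.27, and -0.24 without induced replicate 1. The gap between the ring and these genes was not steady across the induced arrays. The mean of the ring genes, each gene centred on its own mean over the arrays, exceeded that of the other 4 by 0.17 and 0.03 in the controls, was 0.32 lower in induced replicate 1 (-0.32), and exceeded it by 0.12 in induced replicate 2. The ring was therefore low relative to the other members in induced replicate 1 and not in induced replicate 2, and the groups overlapped in this measure. The median distance of the ring genes from the control mean was -0.94 in induced replicate 1 and -0.34 in induced replicate 2, while that of the other 4 was -0.29 and -0.24. At the representative probe sets, the values of Mcm8, Mcm9 and Mcm10 ran from 4.91 to 6.20, above the filter level of 4.17 and below every ring value. Those of Cdc45, which had the largest difference, ran from 5.78 to 6.86. The part of low signal in the smaller differences of Mcm8, Mcm9 and Mcm10 was not tested.

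**Figure D2:**
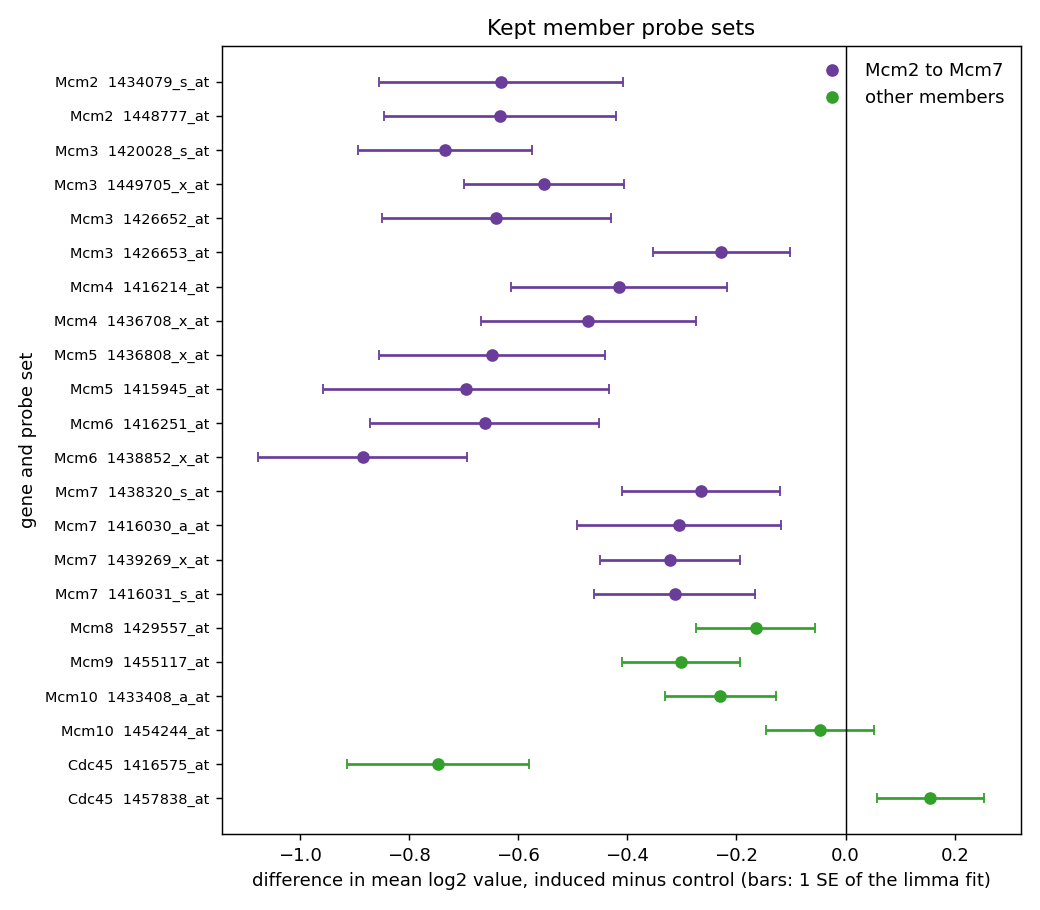
Difference in mean log2 value (horizontal axis, induced minus control, bars 1 SE of the limma fit, n = 2 and 2) of the 22 kept member probe sets, purple for Mcm2 to Mcm7 and green for the other members. All 16 ring probe sets lie left of 0, from -0.88 to -0.23, and 1 probe set of Cdc45 lies right of it at 0.16.

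Separate probe sets of a gene read different stretches of its transcript, and in the ring they mostly agreed. At all 16 kept ring probe sets both induced values lay below both control values, against 18.2% of all kept probe sets, and their differences ran from -0.88 to -0.23. The pair for Mcm2 gave -0.63 each, the pair for Mcm4 -0.41 and -0.47, and the pair for Mcm5 -0.65 and -0.70. The 4 probe sets of Mcm7 lay between -0.32 and -0.27. Mcm3 had the widest spread, with -0.73, -0.64 and -0.55 at its 3 brighter probe sets and -0.23 ± 0.13 at the dimmest kept one (6.36 and 6.07 in the controls, 5.999 and 5.98 in the induced arrays). Probe sets of 1 gene share the RNA of the same arrays and are not replicates.

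By Affymetrix naming, the suffixes s and x mark probe sets whose probes can also match other transcripts, and the representative probe sets of Mcm2, Mcm3, Mcm5 and Mcm7 carry one. With such probe sets left out, an alternative chosen after seeing the data, the ring median was -0.64, and Mcm3 stood at -0.64, Mcm5 at -0.70 and Mcm7 at -0.31. All 10 members kept both induced arrays below both controls.

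Of the 6 kept probe sets of the other members, 4 were lower without overlap, against 18.2% of all kept probe sets. Of the rest, 1 was higher without overlap (Cdc45, against 20.9%) and 1 overlapped. The overlapping one was a further Mcm10 probe set at the filter level, with values of 4.16 and 4.27 (controls) against 4.16 and 4.18 (induced). A further 7 member probe sets lay below the filter and were not tested: 3 of Mcm9, and 1 each of Mcm3, Mcm5, Mcm6 and Mcm10. Of these, 4 were lower without overlap and 3 overlapped, with one Mcm9 probe set listed at 2.42 on all 4 arrays. The share of all probe sets below the filter with that pattern was not computed, so these counts have no background to be read against.

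Induced replicate 1 was the lowest of the 4 arrays in 18 of the 22 kept member probe sets, against 25.1% of all kept probe sets. In the ring it was the lowest in 15 of 16, the exception being the dimmest Mcm3 probe set. Among the other members this held for 3 of 6.

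Other genes of the pathway, from lists chosen with earlier results of these data known, were also lower in mean. The helicase loading list holds the origin recognition complex, its partners Cdc6 and Cdt1, the Cdt1 inhibitor Gmnn and the MCM binding protein Mcmbp. All 10 of its genes had a lower mean, 7 of them without overlap against 19.3% of all genes, with a median of -0.35. None of the 10 passed limma's test in either direction. Cdt1, which brings the ring to the origin, had values of 8.59 and 8.54 (controls) against 7.80 and 8.18 (induced) (-0.57 ± 0.15, adjusted p = 0.308). Cdc6, the ATPase that closes the loading complex, had 6.32 and 5.91 against 5.53 and 5.65 (-0.53 ± 0.16). Both were separated by group. Orc4, a subunit of the origin recognition complex, differed by -0.52 ± 0.13 and Orc2 by -0.39 ± 0.13, while Orc5 (-0.04 ± 0.11) and Mcmbp (-0.12 ± 0.13) overlapped. Without induced replicate 1 the median was -0.22.

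The helicase activation list holds the GINS subunits, the kinase Cdc7 with its activator Dbf4, firing factors and fork protection proteins. All 15 genes had a lower mean, against 50.4% of all genes, and 10 were lower without overlap, against 19.3%, with a median of -0.41, and none passed limma's test in either direction. Timeless, a fork protection protein, had values of 7.48 and 7.29 (controls) against 6.71 and 6.97 (induced) (-0.54 ± 0.13, adjusted p = 0.300). The firing factor Ticrr had 5.74 and 5.74 against 5.41 and 5.29 (-0.39 ± 0.10), with induced replicate 2 the lower, but the other of its 2 kept probe sets had the opposite sign and overlapped (0.13 ± 0.12). Mtbp, which binds Ticrr, differed by -0.37 ± 0.11 and Cdc7 by -0.52 ± 0.16. The GINS subunits, which bind the ring with Cdc45, were uneven: Gins2 differed by -0.49 ± 0.15, Gins3 by -0.41 ± 0.24, Gins1 by -0.39 ± 0.18 and Gins4 by -0.05 ± 0.13, the groups overlapping for Gins3 and Gins4. The other of the 2 kept probe sets of Gins3 also had the opposite sign (0.08 ± 0.12, overlapping). The median was -0.29 without induced replicate 1 and -0.65 without induced replicate 2.

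Of the 6 genes listed as partners of the Mcm8 and Mcm9 complex, 4 had a kept probe set. All 4 had a lower mean, against 50.4% of all genes, and 3 were lower without overlap, against 19.3%, with a median of -0.15, and none passed limma's test in either direction. Nbn, a subunit of the Mre11 break repair complex, differed by -0.32 ± 0.11. Mre11a (-0.16 ± 0.11), Rad50 (-0.13 ± 0.09) and Hrob, the loader of the Mcm8 and Mcm9 helicase (-0.12 ± 0.14), had smaller values.

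**Figure D3:**
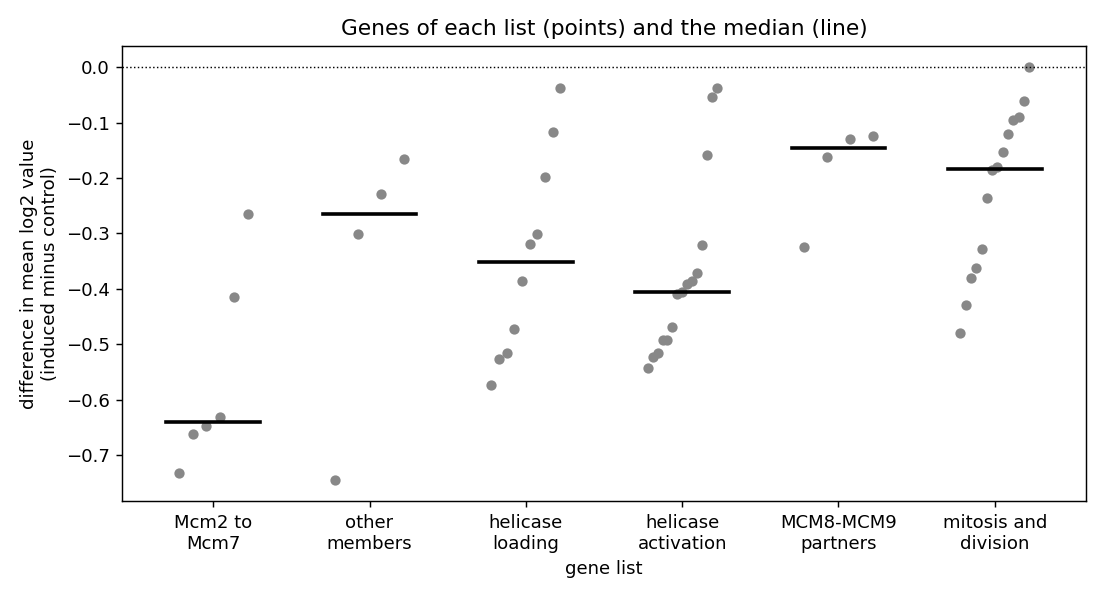
Difference in mean log2 value of each gene (points, induced minus control) in 6 gene lists, with the median of each list as a line. The ring has the lowest median (-0.64), helicase activation (-0.41) and loading (-0.35) follow, and mitosis genes are nearer to 0 (-0.18).

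Mitosis genes were lower mainly in induced replicate 1. Of 14 measured, 13 had a lower mean, against 50.4% of all genes, and 6 were lower without overlap, against 19.3%, with a median of -0.18, and none passed limma's test in either direction. Mki67, the proliferation marker, had values of 9.64 and 9.92 (controls) against 9.44 and 9.89 (induced), which overlapped (-0.12 ± 0.18). Top2a, which untangles replicated chromosomes, had 9.999 and 10.08 against 9.37 and 9.94 (-0.38 ± 0.19) at its representative probe set. The other 2 of its 3 kept probe sets, which are dimmer, had the opposite sign with overlapping groups (0.05 ± 0.11 and 0.00044 ± 0.11). The checkpoint kinase Bub1 differed by -0.48 ± 0.14, the chromosomal passenger kinase Aurkb by -0.43 ± 0.18, Prc1 of the spindle midzone by -0.36 ± 0.11, and the mitotic kinase Cdk1 by -0.33 ± 0.13. The median distance of the list from the control mean was -0.38 in induced replicate 1 and -0.02 in induced replicate 2. In induced replicate 2 the ring genes were at -0.34 on the same measure. That contrast between lists was not tested.

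**Figure D4:**
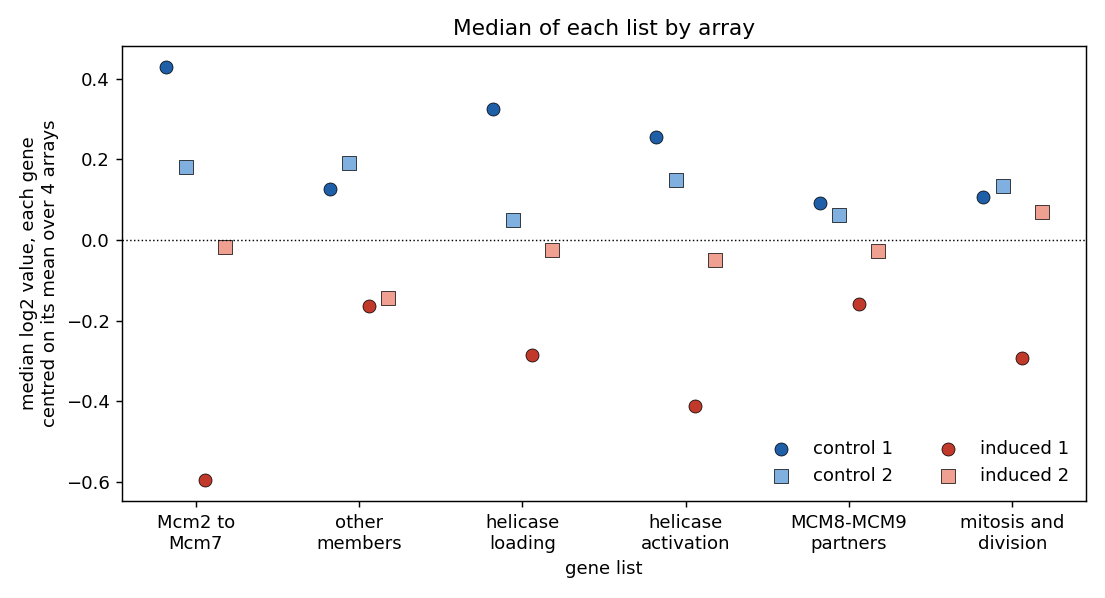
Median log2 value of each of 6 gene lists on each array (points), every gene being centred on its own mean over the 4 arrays. Induced replicate 1 is the lowest array in all 6 lists, at -0.60 for Mcm2 to Mcm7, and induced replicate 2 lies below both controls in each, by the smallest distance from them in the mitosis list.

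In these bulk samples, fewer dividing cells and less RNA per dividing cell cannot be told apart. Of the marker genes of other compartments, none passed limma's test in either direction. In the hair matrix and sheath list, the induced mean was above the control mean for 10 of 11 genes, and 9 were higher without overlap, against 20.1% of all genes. Gata3 (0.12 ± 0.11) and Lef1 (-0.05 ± 0.19, its other kept probe set 0.04 ± 0.18) overlapped. The mean log2 level of the list, which mixes matrix and sheath genes, was 9.09 and 9.36 (controls) against 9.73 and 10.05 (induced). Of the basal keratinocyte markers, 7 of 8 were lower without overlap at their representative probe sets, against 19.3% of all genes. Their mean level was 10.89 and 10.92 (controls) against 10.61 and 10.65 (induced). For Trp63, counted among the 7, 2 of its 4 kept probe sets had the opposite sign (0.46 ± 0.12, without overlap, and 0.10 ± 0.14, overlapping). The melanocyte list had a mean level of 8.36 and 8.35 (controls) against 8.27 and 8.79 (induced), and the suprabasal list stayed between 13.75 and 13.81 on all 4. Dermal fibroblast genes, of which 5 of 8 had a kept probe set, ran from 6.75 to 6.95 in the controls and from 6.48 to 7.09 in the induced arrays. Immune genes ran from 7.35 to 7.56 and from 7.34 to 7.55. Only 2 of 6 endothelial and 2 of 5 red cell genes had a kept probe set. The mean level of the endothelial pair was 4.93 and 5.03 (controls) against 4.86 and 4.64 (induced). Within that pair Kdr overlapped between groups, at 5.33 and 5.63 (controls) against 5.37 and 5.06 (induced). The red cell pair was higher in both induced arrays (mean level 5.19 and 5.10 against 4.72 and 4.73). Within it Slc4a1 differed by 0.71 ± 0.11 and Alas2, which lay near the filter level, by 0.14 ± 0.10. Both were higher without overlap, against 20.1% of all genes. The part of these shifts in the members' values was not tested.

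Neither of the genes found to start beside a member on the opposite strand was lower in both induced arrays. The search used the RefSeq start sites of the 9 members with a promoter window, and Mcm4, which had none, was not searched. Of those 9, 2 have such a neighbour within 1000 bases. Ap4m1, an adaptor protein gene whose start lies 138 bases from that of Mcm7, had values of 6.76 and 6.86 (controls) against 6.96 and 6.92 (induced) (0.13 ± 0.10, adjusted p = 0.741). Ufd1, a ubiquitin pathway gene 322 bases from Cdc45, had 8.95 and 8.86 against 8.90 and 8.89 (-0.01 ± 0.10, adjusted p = 0.990). Ap4m1 was thus higher in both induced arrays and Ufd1 overlapped.

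The genes whose values over the 4 arrays were most like the ring were found by the root mean square difference between a gene's centred values and the mean centred values of Mcm2 to Mcm7, among 13489 genes. The 5 nearest that are no members were Stil, a centriole assembly gene (0.011 log2 units), the pocket protein gene Rbl1 (0.027), Uhrf1, which reads hemimethylated DNA (0.028), the lipoprotein lipase gene Lpl (0.031) and Ptn, the gene of the growth factor pleiotrophin (0.034). Stil had values of 6.38 and 6.21 (controls) against 5.50 and 6.01 (induced). Rbl1 had 8.06 and 7.93 against 7.19 and 7.73, and Uhrf1 had 8.90 and 8.69 against 7.91 and 8.49. All 5 shared the order of the arrays with the ring, control replicate 1 highest and induced replicate 1 lowest, which follows from how they were chosen. Among the members' own ranks by this distance, Mcm5 stood at 13, Mcm6 at 22, Mcm2 at 25, Mcm4 at 41, Mcm3 at 59, Cdc45 at 118 and Mcm7 at 304, while Mcm9 stood at 578, Mcm10 at 2295 and Mcm8 at 3357. The ring genes themselves define the profile, so their ranks are a description, as are all of these distances over 4 arrays.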

How the data were processed

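RNA of every sample was labelled with biotin for 1 Affymetrix array each, per the labels' protocols. The authors deposited log2 values made with RMA, per the submitters' processing notes; RMA corrects background, quantile normalizes between arrays and summarises each probe set. Neither its version nor the chip definition is given. Normalization of this kind hides a change in total RNA per cell.

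Of 45101 probe sets, 64 controls were left out. Gene names came from the platform annotation, in which 34945 probe sets carried 1 gene, 932 several and 9160 none listed. Of the 34945, 34741 were matched to current RefSeq symbols. The test was limma's two-sided moderated test (version 3.58.1, functions lmFit and eBayes, under R 4.3.3) on the 27022 kept probe sets, without a block. It was also run on simulated data whose known differences were larger than those of the members. That run does not show what the test recovers at the members' sizes. The labels call the arrays biological replicates without naming the animals, so p-values measure the spread between these arrays. The number of arrays limits the precision.

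The members and lists were chosen with earlier results of these data known. Named genes are all members, up to 4 genes per pathway list with the largest statistic, Cdt1, Cdc6, Mki67 and Top2a, neighbours that start within 1000 bases on the opposite strand, the 5 nearest profiles, and Xist and Eif2s3y. The other genes given beside them (Orc5, Mcmbp, Gins1 to Gins4, the keratins, Gata3, Lef1, Trp63, Kdr, Slc4a1 and Alas2) were named after their values were seen. The alternatives were other filters, scalings, variance priors, probe set choices, blocks and leaving out each array.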

Additional observations from a re-analysis of the deposited data

Results flagged for a closer look

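Eif2s3y, a Y-linked gene that belongs to no member list, had a log2 value of 9.38 in induced replicate 1. The control arrays read 2.82 and 2.52 and the other induced array 2.72. With its low Xist value (5.86), induced replicate 1 had the pattern of male RNA, and the other arrays that of female RNA. The same array had the lowest value for 18 of the 22 kept member probe sets, and the members' differences without it are given with their values.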

How the results depend on the processing

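With 2 arrays a group, only large differences could pass the test. Under 13 alternatives, all 129 recomputed differences of single members, taken per gene, kept their negative direction. Each setting took a gene's brightest eligible probe set or the mean of its probe sets. None took the other kept Cdc45 probe set alone, which was higher (0.16). With every array in the fit the 10 members stayed short of the threshold, the lowest adjusted p being 0.0962 (limma, with trend and robust). Over all kept member probe sets the lowest in that setting was 0.0905, at the other kept probe set of Mcm6. With arrays left out in turn, the ring median ran from -0.94 to -0.34, that of the other 4 members from -0.32 to -0.24 and that of helicase activation from -0.65 to -0.29; the cause was not tested. The number of members lower without overlap was 9 under a filter at the 60th percentile, where Mcm9 was no longer measured, and 9 with median centring, without Mcm4. With the replicate block, 0 member probe sets passed. The deviations of same-numbered arrays had a correlation of -0.10, and with the crossed pairing as a replicate block 0 passed as well. The labels do not say that the numbers pair animals, and the block moved no count of calls.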
